A study of Mus musculus with 2 samples.

Results

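The genes described here encode the proteasome, the barrel-shaped protease that degrades ubiquitin-tagged proteins. They were measured in mouse cells sorted as blood stem cells, from animals labelled as lacking the cytosolic carboxypeptidase CCP3 and from wild type animals. Members were all protein-coding genes whose symbol begins with Psma, Psmb, Psmc, Psmd, Psme, Psmf or Psmg followed by a digit, and 51 of the 17216 genes in the deposited files met that rule. All 51 were listed in both libraries. They comprised 16 core genes, 5 immunoproteasome genes, 17 cap genes, 7 assembly genes, the other activators Psme3 and Psme4 and the inhibitor Psmf1, and Psme2b, a close copy of Psme2. The remaining 2, Psmc3ip and Psme3ip1, carry such symbols but encode no subunit. They are, as background, a meiotic recombination cofactor and a protein that binds Psme3.

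RNA came from sorted C57BL/6 cells with the surface phenotype of long-term haematopoietic stem cells, negative for lineage markers and CD48 and positive for Sca-1, c-Kit and CD150. There was 1 library from Ccp3-/- mice and 1 from wild type littermates. Age, sex, pooling of animals and the deleted part of the gene are not stated. Values are FPKM, fragments per kilobase of transcript scaled to library size, a level per length. With 1 library per genotype no test between genotypes was possible, no difference has a replicate check, and every value compares these 2 libraries. Reads per gene were estimated from the step between low FPKM values, which gave about 14.2 M reads in the knockout-labelled library and 15.5 M in the wild type library. The 95% intervals printed with ratios are exact conditional intervals from those estimated reads and cover counting error only.

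Several facts of the libraries bear on what follows. Agbl3, which encodes CCP3, had 0.66 FPKM in the knockout-labelled and 1.11 FPKM in the wild type library, a ratio of 0.595 (0.291 to 1.20) from about 15 and 23 reads, so its RNA did not check the label. RNA of Cd48, a protein selected against in the sort, stood at 114 FPKM in the knockout-labelled and 136 FPKM in the wild type library. That of Slamf1, the CD150 gene, stood at 3.40 FPKM in the knockout-labelled and 2.14 FPKM in the wild type library. The X-inactivation RNA Xist had 44.2 FPKM in the knockout-labelled and 5.38 FPKM in the wild type library, and the Y-linked gene Eif2s3y had 11.5 FPKM in the knockout-labelled and 44.6 FPKM in the wild type library. Xist and Eif2s3y were both found in each library, in unlike proportions, and that difference cannot be told apart from genotype here. The genotype, the purity of the sort and the sex of the animals are thus not settled by these RNAs. Fewer cells of a type and less RNA per cell cannot be told apart in such bulk libraries.

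As background, the proteasome core is a stack of rings, with outer rings of alpha subunits that gate the channel and inner rings of beta subunits, of which Psmb5, Psmb6 and Psmb7 are the proteolytic ones. Interferon-induced Psmb8, Psmb9 and Psmb10 take the places of Psmb5, Psmb6 and Psmb7 to form the immunoproteasome, which favours peptides for MHC class I, and Psme1 and Psme2 form an activator ring that caps it. The regulatory cap binds ubiquitin chains, removes them and unfolds the substrate with a ring of ATPases. Blood stem cells are known for a low rate of protein synthesis and a dependence on accurate protein turnover. The transcription factor NFE2L1 raises proteasome genes through antioxidant response elements when the proteasome is impaired.

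Stretches of 150 bases before to 30 bases from the annotated start are shown for 5 members named in the results. They are the immunoproteasome genes Psmb9 and Psme1, the constitutive catalytic genes Psmb5 and Psmb6, and Psme4, the member with the highest ratio to wild type as deposited. All 5 hold a match, so they do not show how common a match is. Sequences are from RefSeq on the mouse build GRCm38.p6, 5′ to 3′ on the gene's strand, and capitals mark a match, on either strand, to 1 of 3 patterns. The windows are chr17:34187301-34187480 (minus strand) for Psmb9, chr14:55578344-55578523 (plus strand) for Psme1, chr14:54617966-54618145 (minus strand) for Psmb5, chr11:70525207-70525386 (plus strand) for Psmb6 and chr11:30771625-30771804 (plus strand) for Psme4.
Psmb9: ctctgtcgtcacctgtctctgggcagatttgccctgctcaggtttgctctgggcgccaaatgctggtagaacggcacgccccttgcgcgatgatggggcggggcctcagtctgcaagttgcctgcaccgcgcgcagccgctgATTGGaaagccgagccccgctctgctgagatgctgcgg
Psme1: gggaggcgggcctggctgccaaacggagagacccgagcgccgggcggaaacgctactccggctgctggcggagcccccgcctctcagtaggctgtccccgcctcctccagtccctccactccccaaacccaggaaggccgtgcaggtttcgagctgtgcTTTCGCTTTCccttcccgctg
Psmb5: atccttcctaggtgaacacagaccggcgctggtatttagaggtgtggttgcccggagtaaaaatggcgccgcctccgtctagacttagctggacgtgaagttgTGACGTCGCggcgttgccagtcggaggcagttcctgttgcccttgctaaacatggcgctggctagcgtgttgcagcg
Psmb6: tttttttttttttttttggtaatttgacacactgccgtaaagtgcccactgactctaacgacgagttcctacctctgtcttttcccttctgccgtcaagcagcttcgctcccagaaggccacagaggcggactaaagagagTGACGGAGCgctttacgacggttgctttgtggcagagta
Psme4: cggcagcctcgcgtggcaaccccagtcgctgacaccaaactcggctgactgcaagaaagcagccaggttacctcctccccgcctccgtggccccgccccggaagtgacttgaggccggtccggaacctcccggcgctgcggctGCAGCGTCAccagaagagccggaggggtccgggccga
The capitals in Psmb5, Psmb6 and Psme4 match the antioxidant response element TGACNNNGC, beginning 47, 9 and 7 bases before the start. Those in Psme1 match the interferon response element (GAAA, 2 bases of any kind, GAAA) and those in Psmb9 the CCAAT box CCAAT. No marked matches overlap in these 5 windows. RefSeq windows of 250 bases before to 50 after the start matched 43 of the 51 genes, in 47 windows. TGACNNNGC was in 6 of the 47 windows (12.8%), against 12.4% of 32851 windows of all genes, and CCAAT was in 16 (34%), against 37.4%. The interferon response element was in 5 (10.6%), those of Psmb3, Psmd4, Psmd9, Psme1 and Psmg4, against 3.44% of all windows. Among the 5 immunoproteasome genes, Psme1 alone held the interferon response element. Psmb10 held none of the 3 patterns and is not shown. A match is a description of letters, and no factor binding was measured.

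**Figure D1:**
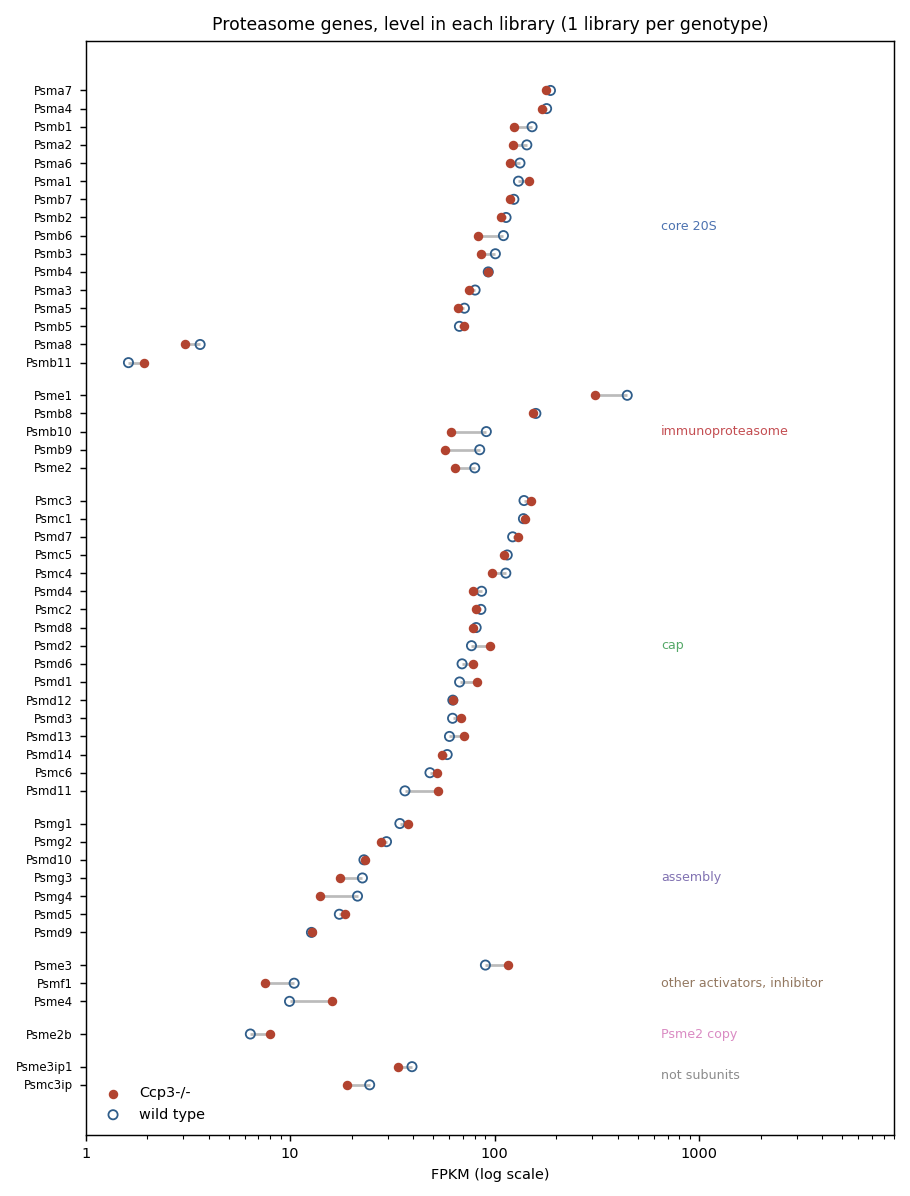
Level of each of the 51 genes in FPKM (log scale) in the knockout-labelled library (filled red) and the wild type library (open blue), grouped by class and ordered by wild type level. Psme1 stands highest in both libraries, the 14 widely expressed core genes lie between 66.0 and 187 FPKM, and the assembly genes lie lower, between 12.7 and 37.6 FPKM.

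The design asks which transcripts differ in stem cells of mice deficient in CCP3. The immunoproteasome genes Psmb9, Psmb10 and Psme1 were lower in the knockout-labelled library, by close to the 1.5-fold mark as deposited. They were lower by less with equal FPKM sums and with centring on transcript length. Core genes were slightly lower as deposited, a direction that turned with equal FPKM sums and with centring on transcript length, and cap genes were slightly higher. The nuclear activators Psme3 and Psme4 were higher. Of the 51 members, 1 was at least 1.5-fold higher, against 6.11% of the 11985 genes averaging 1 FPKM or more over the libraries, and 0 were at least 1.5-fold lower, against 6.13% of those genes. Fold marks are on the log2(FPKM + 1) scale, on which the difference is the knockout-labelled library minus wild type. The 1 member past the mark was Psme4, and Psmg4, Psmb10 and Psmb9 lay just short of it on the low side at −0.57, −0.57 and −0.56. In all, 21 members were above 0 (50.8% of all genes were) and 30 below 0 (49% of all genes were). The 51 genes together, with the 2 that encode no subunit, summed to 4049 FPKM in the knockout-labelled and 4316 FPKM in the wild type library, or 0.8% of all FPKM in the knockout-labelled and 0.747% in the wild type library. The order of levels was nearly the same in both libraries (Spearman 0.96 across the 51 genes, a description).

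Levels of the widely expressed core genes lay close together within each library, and those of the cap genes were nearly as close. The 14 core genes of wide expression ranged over 2.71-fold in the knockout-labelled and 2.79-fold in the wild type library. Their coefficients of variation were 32.0% in the knockout-labelled and 30.8% in the wild type library. Psma7, an alpha ring subunit, was the most abundant at 179 FPKM in the knockout-labelled and 187 FPKM in the wild type library, and Psma5 the lowest by mean at 66.0 FPKM in the knockout-labelled and 71.1 FPKM in the wild type library. The cap genes had a median of 78.5 FPKM in the knockout-labelled and 77.0 FPKM in the wild type library. Coefficients of variation of the cap genes were 34.2% in the knockout-labelled and 37.2% in the wild type library. The median of the 14 core genes was 113 FPKM in the knockout-labelled and 119 FPKM in the wild type library, which was 1.44 times the cap median in the knockout-labelled and 1.54 times in the wild type library.

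Among core genes, 12 of 16 were below 0 and 4 above, with a median difference of −0.08, against 0.01 over all genes. Of all genes 49% were below 0, and of the 1458 genes of 800 to 1400 bases 75.7% were. Psmb6, the caspase-like subunit, differed most. It was listed at 82.6 FPKM in the knockout-labelled and 110.4 FPKM in the wild type library, a ratio of 0.748 (0.694 to 0.807). Psmb1, a non-catalytic beta subunit, had 124 FPKM in the knockout-labelled and 152 FPKM in the wild type library, a ratio of 0.812 (0.763 to 0.864). Psmb3, another non-catalytic beta subunit, followed with 85.9 FPKM in the knockout-labelled and 101 FPKM in the wild type library. The 3 highest differences among core genes averaging 5 FPKM or more belonged to the alpha subunit gene Psma1, to Psmb5 and to Psmb4, a non-catalytic beta subunit. Psma1 was listed at 147 FPKM in the knockout-labelled and 131 FPKM in the wild type library, a ratio of 1.13 (1.07 to 1.19). Psmb5, the chymotrypsin-like subunit, had 70.8 FPKM in the knockout-labelled and 67.2 FPKM in the wild type library. Psmb4 had 93.3 FPKM in the knockout-labelled and 93.03 FPKM in the wild type library, and for both of these genes the interval of the ratio included 1. Psmb7, the trypsin-like subunit, had 119 FPKM in the knockout-labelled and 124 FPKM in the wild type library. Of the 3 constitutive catalytic subunits, Psmb6 alone had an interval that excluded 1.

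The alpha genes Psma2, Psma3 and Psma6 had intervals below 1, with ratios of 0.857, 0.938 and 0.896. Psma4, Psma5, Psma7 and the beta gene Psmb2 had ratios of 0.928 to 0.953 and intervals that included 1. Levels of these 7 genes ran from 66.0 to 179 FPKM in the knockout-labelled and from 71.1 to 187 FPKM in the wild type library. Counting intervals excluded a ratio of 1 on the low side for 6 core genes and on the high side for 1. Over all genes the shares were 27% on the low side and 31.2% on the high side, and deeply counted genes such as these pass more easily. The tissue-specific variants were near the bottom of the range. Psma8, known as a testis alpha subunit, had 3.06 FPKM in the knockout-labelled and 3.63 FPKM in the wild type library. Psmb11, the thymic catalytic subunit, had 1.93 FPKM in the knockout-labelled and 1.62 FPKM in the wild type library.

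All 5 immunoproteasome genes were below 0, against 49% of all genes and 75.7% of those of 800 to 1400 bases. Their median difference was −0.52. Their summed level was 645 FPKM in the knockout-labelled and 859 FPKM in the wild type library (ratio 0.751, 0.731 to 0.771). Psme1, an activator subunit, was the most abundant of the 51 genes. Its level was 309.5 FPKM in the knockout-labelled and 445 FPKM in the wild type library, a ratio of 0.696 (0.669 to 0.724), and it made up 7.64% of the sum over the 51 genes in the knockout-labelled and 10.3% in the wild type library. Psmb10 had 61.2 FPKM in the knockout-labelled and 91.02 FPKM in the wild type library, a ratio of 0.672 (0.622 to 0.726). Psmb9 was similar, with 56.9 FPKM in the knockout-labelled and 84.5 FPKM in the wild type library and a ratio of 0.673 (0.608 to 0.745). Psmb8 was the exception. It stood at 154 FPKM in the knockout-labelled and 159 FPKM in the wild type library, and the interval of its ratio, 0.966 (0.915 to 1.02), included 1.

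Psme2, the partner of Psme1 in the activator ring, had 64.1 FPKM in the knockout-labelled and 79.9 FPKM in the wild type library, a ratio of 0.803 (0.731 to 0.881). Its copy Psme2b had 7.95 FPKM in the knockout-labelled and 6.39 FPKM in the wild type library, with an interval of the ratio that included 1. Reads could be split between these copies, so each is uncertain as a single gene. Their sum was 72.1 FPKM in the knockout-labelled and 86.3 FPKM in the wild type library, a ratio of 0.835 (0.765 to 0.912). Psme1 stood 4.83 times above Psme2 in the knockout-labelled and 5.57 times above it in the wild type library, and the ratio of these was 0.867 (0.784 to 0.960).

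Markers of other cells differed alongside the immunoproteasome genes. Among dendritic markers, all 9 that averaged 1 FPKM or more were lower by 1.5-fold or more, and the summed level of the 10 listed was 298 FPKM in the knockout-labelled and 542 FPKM in the wild type library. Among B lymphoid markers, 9 of 10 were that much lower, with sums of 215 FPKM in the knockout-labelled and 488 FPKM in the wild type library. For erythroid markers it was 5 of 8, with sums of 328 FPKM in the knockout-labelled and 1384 FPKM in the wild type library. Most of that sum was globin RNA, with Hba-a1 at 155 FPKM in the knockout-labelled and 764 FPKM in the wild type library and Hbb-bs at 107 FPKM in the knockout-labelled and 457 FPKM in the wild type library. The other 3, Epor, Klf1 and Ermap, were above 0, with ratios of 1.32, 1.18 and 1.14. In the neutrophil lineage list, 8 of 13 were higher by that measure and 0 lower, with sums of 12132 FPKM in the knockout-labelled and 8697 FPKM in the wild type library. Of these 13, 2 were below 0. Camp had a ratio of 0.731 (0.679 to 0.787), and Ngp had a ratio of 0.973 with an interval that included 1. None of the markers in these lists was at 0 in either library, and their part in the proteasome differences was not tested.

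**Figure D2:**
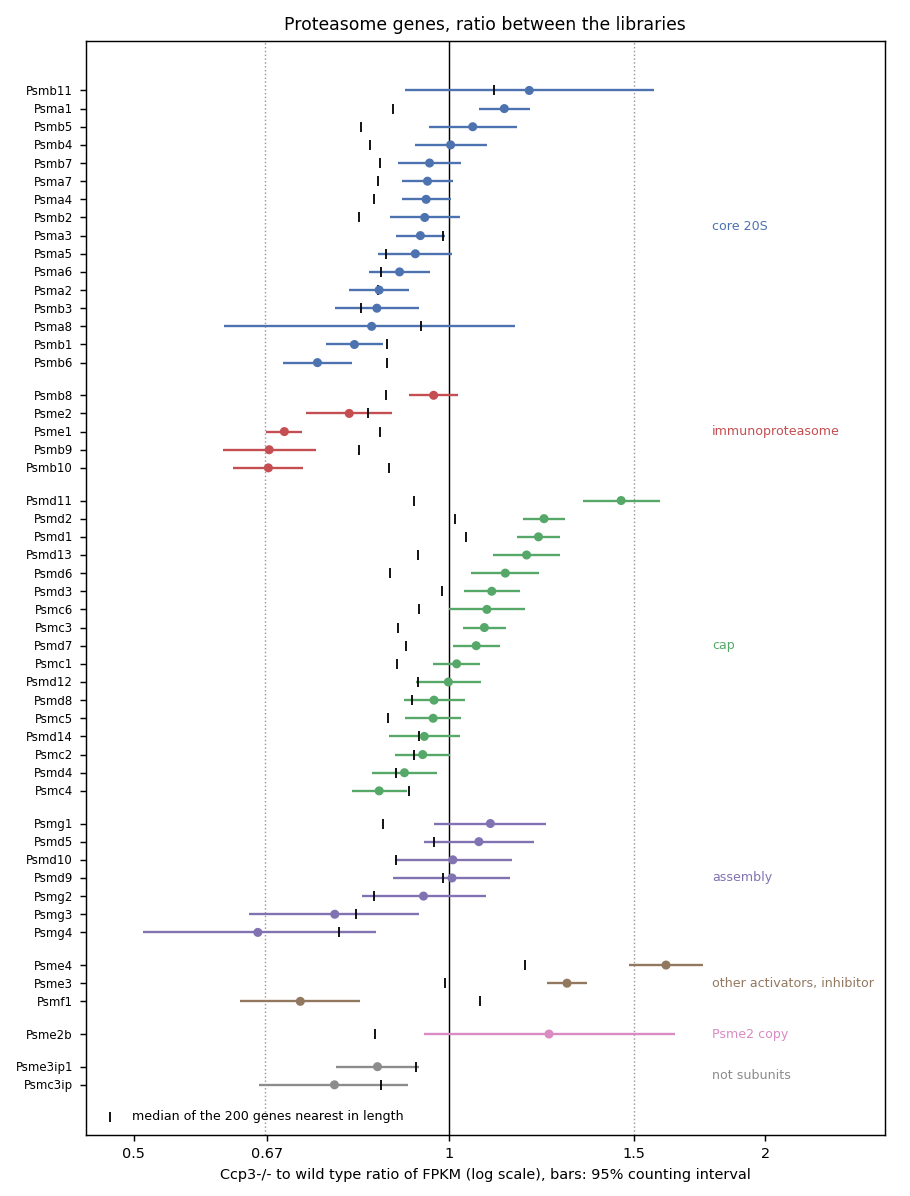
Knockout-labelled to wild type ratio of FPKM (log scale) for each of the 51 genes, with 95% counting intervals from estimated reads, black ticks at the median of the 200 genes nearest in transcript length, and dotted lines at 1.5-fold. Psmb9, Psmb10 and Psme1 lie at 0.672 to 0.696, while Psmb8 lies at 0.966.

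Each inducible catalytic subunit was set against the constitutive subunit it replaces, within a library. Psmb8 to Psmb5 was 2.17 in the knockout-labelled and 2.36 in the wild type library, and the ratio of these was 0.918 (0.822 to 1.03). Psmb9 to Psmb6 was 0.689 in the knockout-labelled and 0.766 in the wild type library, and the ratio of these was 0.900 (0.792 to 1.02). Both intervals included 1, so a difference was not detectable at this depth, and Psmb6 was lower alongside Psmb9. Psmb10 to Psmb7 was 0.515 in the knockout-labelled and 0.733 in the wild type library, and here the ratio of these was 0.702 (0.633 to 0.779). The intervals are for each of these 3 pairs alone. In the annotation Psmb5 overlaps the microRNA gene Mir686, listed at 53.5 FPKM in the knockout-labelled and 46.3 FPKM in the wild type library, and reads could be split between them.

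**Figure D3:**
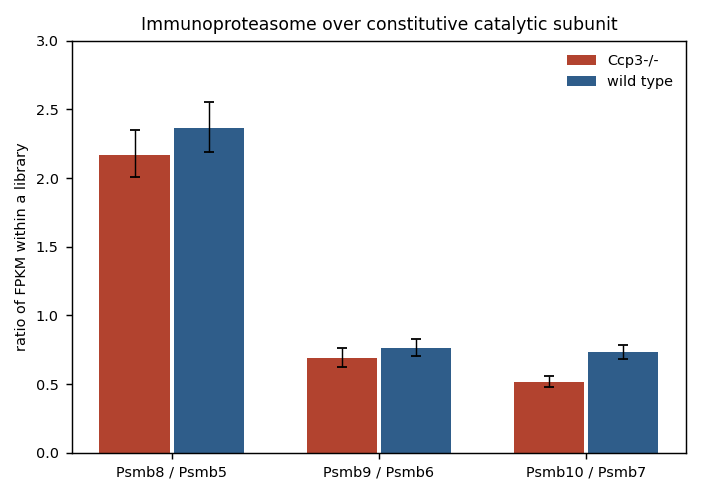
Ratio of FPKM of each immunoproteasome catalytic subunit to the constitutive subunit it replaces, in the knockout-labelled library (red) and the wild type library (blue), with 95% counting intervals from estimated reads. The ratio of Psmb10 to Psmb7 is 0.515 in the knockout-labelled and 0.733 in the wild type library, and the intervals of the other pairs overlap.

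Cap genes had a median difference of 0.08, with 10 of 17 above 0, against 50.8% of all genes. Counting intervals excluded 1 on the high side for 8 cap genes and on the low side for 2. The shares over all genes were 31.2% on the high side and 27% on the low side, and deeply counted genes pass more easily. Psmd11, a lid subunit whose level is linked in human embryonic stem cells to high proteasome activity, differed most. Its level was 53.1 FPKM in the knockout-labelled and 36.4 FPKM in the wild type library, a ratio of 1.46 (1.34 to 1.59). It was the least abundant cap gene by mean. Psmd2 and Psmd1, the large scaffold subunits to which ubiquitin receptors dock, followed. Psmd2 had 94.8 FPKM in the knockout-labelled and 77.02 FPKM in the wild type library, a ratio of 1.23 (1.18 to 1.29). Psmd1 had 81.9 FPKM in the knockout-labelled and 67.4 FPKM in the wild type library, a ratio of 1.22 (1.16 to 1.27).

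The lowest cap differences were in 2 ATPase genes and a ubiquitin receptor gene. The ATPase gene Psmc4 had 97.2 FPKM in the knockout-labelled and 113 FPKM in the wild type library, a ratio of 0.857 (0.807 to 0.910). Psmd4, a ubiquitin receptor, had 78.2 FPKM in the knockout-labelled and 86.3 FPKM in the wild type library, a ratio of 0.906 (0.844 to 0.972). The ATPase gene Psmc2 had 80.7 FPKM in the knockout-labelled and 85.6 FPKM in the wild type library, with an interval of the ratio that included 1. The 6 ATPase genes had a median of −0.01, with 3 above 0 and 3 below. Psmc3, an ATPase gene, was the most abundant cap gene, with 150.2 FPKM in the knockout-labelled and 139 FPKM in the wild type library. The 11 non-ATPase genes had a median of 0.13, with 7 above 0. Among them Psmd14, the deubiquitinase of the lid, had 55.4 FPKM in the knockout-labelled and 58.6 FPKM in the wild type library. The other 9 cap genes, Psmc1, Psmc5, Psmc6, Psmd3, Psmd6, Psmd7, Psmd8, Psmd12 and Psmd13, had ratios of 0.965 to 1.18. Their levels ran from 52.4 to 140.4 FPKM in the knockout-labelled and from 48.3 to 138 FPKM in the wild type library.

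Assembly genes were split. The median over all 7 was 0.01, with 4 above 0 and 3 below. Psmg3 and Psmg4, whose products pair to guide the alpha ring, were lower as deposited, and by less with centring on transcript length. Psmg4 had 14.02 FPKM in the knockout-labelled and 21.4 FPKM in the wild type library, a ratio of 0.657 (0.510 to 0.851) from about 102 and 161 reads. Psmg3 had 17.5 FPKM in the knockout-labelled and 22.6 FPKM in the wild type library, a ratio of 0.777 (0.644 to 0.936). Psmg1 and Psmg2, whose products form the partner pair, had intervals that included 1. Psmg1 had 37.6 FPKM in the knockout-labelled and 34.4 FPKM in the wild type library. Psmg2 had 27.9 FPKM in the knockout-labelled and 29.6 FPKM in the wild type library. The chaperones of the cap ATPases were close to equal, with intervals that included 1. Psmd5 had 18.6 FPKM in the knockout-labelled and 17.4 FPKM in the wild type library. Psmd9 had 12.8 FPKM in the knockout-labelled and 12.7 FPKM in the wild type library. Psmd10 had 23.1 FPKM in the knockout-labelled and 22.9 FPKM in the wild type library.

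The other activators and the inhibitor also stood apart from 1. Psme4, a nuclear activator, had 15.97 FPKM in the knockout-labelled and 9.93 FPKM in the wild type library, a ratio of 1.61 (1.48 to 1.74). Psme3, another nuclear activator, had 117 FPKM in the knockout-labelled and 90.1 FPKM in the wild type library, a ratio of 1.29 (1.24 to 1.35). Both activators were thus higher while Psme1 and Psme2 were lower. Psmf1, an inhibitor of the isolated core, had 7.54 FPKM in the knockout-labelled and 10.5 FPKM in the wild type library, a ratio of 0.721 (0.631 to 0.822). Of the genes that share the symbol but encode no subunit, Psmc3ip had 19.02 FPKM in the knockout-labelled and 24.5 FPKM in the wild type library and Psme3ip1 had 33.7 FPKM in the knockout-labelled and 39.4 FPKM in the wild type library.

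Transcript length moved with these differences. Over the 51 members the difference and the length had a Spearman correlation of 0.52, and over all 11985 genes it was 0.43, both across genes of the same pair of libraries. Core genes had a median length of 1017 bases, cap genes 1564 bases, and Psme4 was the longest member at 6454 bases. The 1458 genes of 800 to 1400 bases had a median difference of −0.22, and 75.7% of them were below 0. Relative to the 200 genes nearest in length, the core median was 0.08, with 12 of 16 genes above 0, so the direction of the core class turned. On that scale 50.1% of all genes were above 0. The cap median was 0.19 on that scale, with 16 of 17 above 0, including all 11 non-ATPase genes. For assembly genes the median was 0.14, with 5 of 7 above 0, while Psmg4 was at −0.22 and Psmg3 at −0.05. The immunoproteasome median was −0.28, with 4 of 5 below 0, Psmb10 at −0.38, Psme1 at −0.30, Psmb9 at −0.28 and Psme2 at −0.06, while Psmb8 was at 0.15. The only member at least 1.5-fold apart on that scale was Psmd11 at 0.64, with Psme4 at 0.39, Psme3 at 0.38 and Psmf1 at −0.52. Over all genes, 4.94% were that much higher on the same scale and 4.36% that much lower. The part of length in the differences as deposited was not tested.

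**Figure D4:**
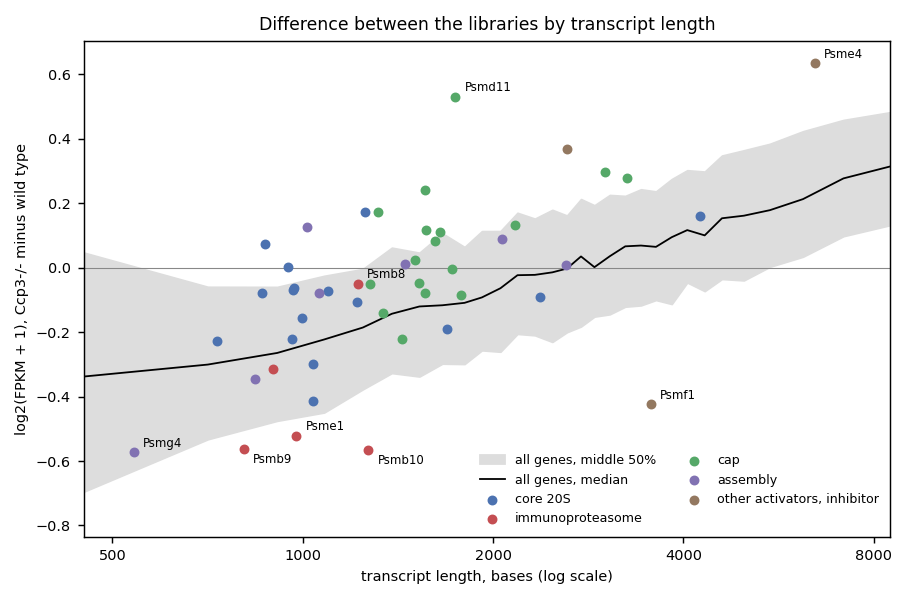
Difference on the log2(FPKM + 1) scale, knockout-labelled minus wild type, against transcript length (log scale) for the proteasome genes, coloured by class, with the median (line) and middle 50% (band) of all 11985 genes in bins of similar size. Most core and cap genes lie on or above the line, and Psmb9, Psmb10, Psme1 and Psmf1 lie under the band.

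Genes that work with the proteasome were described from lists. Of 8 cap partners, 1 was at least 1.5-fold higher and 0 lower, against 6.11% and 6.13% of all genes. This was the ubiquitin ligase gene Ube3a, with 15.6 FPKM in the knockout-labelled and 6.61 FPKM in the wild type library, a ratio of 2.35 (2.12 to 2.62). The cap deubiquitinase gene Usp14 had 29.6 FPKM in the knockout-labelled and 21.97 FPKM in the wild type library, and Uchl5, another, had 64.1 FPKM in the knockout-labelled and 48.8 FPKM in the wild type library. The ligase gene Ube3c had 9.40 FPKM in the knockout-labelled and 7.15 FPKM in the wild type library. The list's median was 0.35, or 0.22 relative to genes of similar length. None of the 3 assembly partners was 1.5-fold apart. Pomp, the maturation factor of the beta rings, stood at 143 FPKM in the knockout-labelled and 212 FPKM in the wild type library, a ratio of 0.674 (0.630 to 0.721). Akirin2, needed for import of the proteasome into the nucleus, had 23.2 FPKM in the knockout-labelled and 19.9 FPKM in the wild type library. Fbxo7, which binds Psmf1, had 17.5 FPKM in the knockout-labelled and 20.3 FPKM in the wild type library.

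Genes that control proteasome transcription had a median of 0.23, or 0.07 relative to genes of similar length. Of these 5 genes, 1 was at least 1.5-fold higher and 0 lower, against 6.11% and 6.13% of all genes. This was Ddi2, the protease that releases NFE2L1 from its precursor, with 22.1 FPKM in the knockout-labelled and 12.8 FPKM in the wild type library, a ratio of 1.72 (1.56 to 1.89). Nfe2l1 itself had 27.9 FPKM in the knockout-labelled and 23.6 FPKM in the wild type library, and Stat3 had 54.6 FPKM in the knockout-labelled and 44.4 FPKM in the wild type library. Ngly1, which deglycosylates NFE2L1, had 12.8 FPKM in the knockout-labelled and 13.8 FPKM in the wild type library. Of the 6 ubiquitin and activating enzyme genes, 1 was at least 1.5-fold lower and 0 higher, against 6.13% and 6.11% of all genes. This was Rps27a, with 1217 FPKM in the knockout-labelled and 1862 FPKM in the wild type library. The ubiquitin gene Ubb had 1151 FPKM in the knockout-labelled and 1639 FPKM in the wild type library. The product of Rps27a is fused to a ribosomal protein. The activating enzyme gene Uba6 was higher, with 7.89 FPKM in the knockout-labelled and 4.94 FPKM in the wild type library. None of 11 shuttle and segregase genes was 1.5-fold apart. The shuttle gene Rad23b had 82.3 FPKM in the knockout-labelled and 63.9 FPKM in the wild type library and Ubqln1 had 40.1 FPKM in the knockout-labelled and 31.4 FPKM in the wild type library. The segregase cofactor gene Nploc4 had 15.6 FPKM in the knockout-labelled and 12.1 FPKM in the wild type library, and the autophagy receptor gene Sqstm1 had 59.5 FPKM in the knockout-labelled and 73.4 FPKM in the wild type library.

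The immunoproteasome supplies MHC class I presentation with peptides. Of 7 genes of that presentation, 1 was at least 1.5-fold lower and 0 higher, against 6.13% and 6.11% of all genes. This was B2m, the class I light chain, at 1421 FPKM in the knockout-labelled and 3244 FPKM in the wild type library, a ratio of 0.438 (0.430 to 0.446). The heavy chain gene H2-K1 had 424 FPKM in the knockout-labelled and 535 FPKM in the wild type library, and H2-D1 had 404 FPKM in the knockout-labelled and 462 FPKM in the wild type library. The list as a whole had 2 genes above 0 and 5 below, with a median of −0.19, or −0.10 relative to genes of similar length. Those above were Erap1, which trims peptides, with 38.4 FPKM in the knockout-labelled and 34.1 FPKM in the wild type library, and Tap2, with 92.1 FPKM in the knockout-labelled and 88.6 FPKM in the wild type library. The peptide transporter gene Tap1 had 57.3 FPKM in the knockout-labelled and 72.2 FPKM in the wild type library. All 7 interferon control genes were below 0, against 49% of all genes, and 2 of them were at least 1.5-fold lower, against 6.13%. Irf7 had 8.55 FPKM in the knockout-labelled and 26.2 FPKM in the wild type library, and Irf9 had 29.8 FPKM in the knockout-labelled and 45.7 FPKM in the wild type library. Irf1, an activator of Psmb9, had 56.5 FPKM in the knockout-labelled and 72.5 FPKM in the wild type library. Stat2 had 13 FPKM in the knockout-labelled and 16.3 FPKM in the wild type library.

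**Figure D5:**
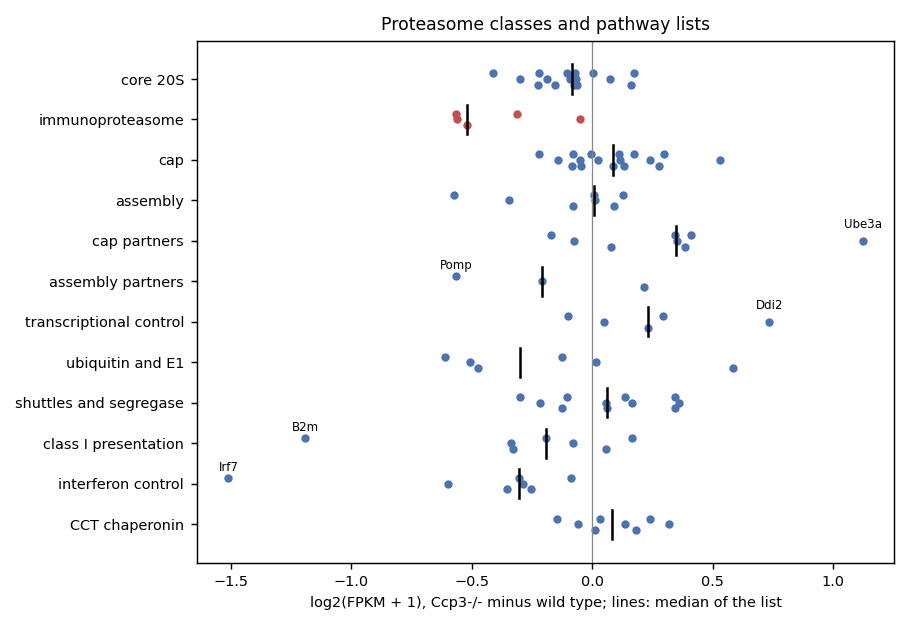
Difference on the log2(FPKM + 1) scale, knockout-labelled minus wild type, for each gene of the 4 proteasome classes, of 7 lists of genes that work with the proteasome and of the CCT chaperonin (points), with the median of each list (black lines). The immunoproteasome points (red) lie at −0.57 to −0.05, and all 7 interferon control genes lie below 0.

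Other multisubunit machines were set beside the proteasome as values only. The 8 CCT chaperonin genes had a median difference of 0.08, or 0.16 relative to genes of similar length, close to the cap values of 0.08 and 0.19. All 82 ribosomal protein genes were below 0, against 49% of all genes. Their median was −0.53, or −0.26 relative to genes of similar length, close to the immunoproteasome values of −0.52 and −0.28. The differences between these lists and the proteasome classes were not tested.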

How the data were processed

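RNA of 1 Ccp3-/- and 1 wild type library of sorted stem cells was sequenced on a BGISEQ-500, per the labels' design text. The authors deposited an FPKM value and a transcript length in bases for each Entrez gene, per the file headers. The submitters' processing notes name mm9, RSEM, HISAT2 and HISAT, with no versions. A gene missing from 1 file was taken as 0. Symbols came from RefSeq (GRCm38.p6, 17169 of 17216 identifiers matched). FPKM carries no depth, so reads were estimated by fitting FPKM times length, after taking 38 bases (knockout-labelled) and 44 bases (wild type) from the length, to multiples of 70.5 and 64.7. In the knockout-labelled library 88.4% of 406 low values were within 0.15 of a whole read, and in the wild type library 85.8% of 359. Both constants were chosen on these values, so the intervals are approximate.

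Differences are log2(FPKM + 1), knockout-labelled minus wild type, for genes averaging 1 FPKM or more, a scale that understates low genes. Ratios are of FPKM with no pseudocount. Members and lists were chosen with earlier results of these data known. Genes were named by rule: all immunoproteasome genes and their counterparts, members 1.5-fold apart, Psme3, Psme4 and Psmf1, the 3 highest and 3 lowest differences and the most and least abundant of the core, cap and assembly classes (mean of 5 FPKM or more), and up to 4 genes of each pathway list. The other members were named to account for all, after their values were seen. Alternatives were other pseudocounts, filters and scalings and a centring on length. The procedures were tested on simulated data. Software was matplotlib 3.10.9, scipy 1.17.1, pandas 2.3.3 and numpy 2.4.6 under Python 3.11.15. A promoter pattern and a pathway gene are not reported here.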

Additional observations from a re-analysis of the deposited data

How the results depend on the processing

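The alternatives were another pseudocount, another filter on low values, 3 other scalings and centring on genes of similar length; those for the catalytic subunit pairs and the sum of Psme2 and Psme2b were chosen after seeing the data. Scaling both libraries to the same FPKM sum moved the median of all genes to 0.18, against 0.01 as deposited. Under it the medians were 0.10 for core, −0.33 for immunoproteasome, 0.27 for cap and 0.18 for assembly genes, so the core direction turned, though relative to the median of all genes core stayed below at −0.07, against −0.09 as deposited. Members above and below 0 were then 36 and 15, against 21 and 30, while 69.7% of all genes were above 0, against 50.8% as deposited, and the genes of the whole table at least 1.5-fold higher and lower were 12.3% and 3.31%. Upper-quartile scaling gave −0.11 for core and 0.056 for cap genes. Length centring gave 0.076 for core, which turned, −0.28 for immunoproteasome, 0.19 for cap and 0.14 for assembly genes. Members at least 1.5-fold higher numbered 2 with equal sums (Psmd11 and Psme4) and 0 with a pseudocount of 5. With that pseudocount 2.35% of all genes were that much higher. Members at least 1.5-fold lower numbered 1 with TMM factors and 1 with a pseudocount of 0.1 (Psmg4 in each), and 3 with upper-quartile scaling (Psmb9, Psmb10 and Psmg4). Over all genes the shares lower were 6.45% with TMM factors, 8.39% with a pseudocount of 0.1 and 6.77% with upper-quartile scaling. The cause of these shifts was not tested. The catalytic pair ratios kept their direction under both other pseudocounts and length centring. No paired analysis was possible because there was 1 library per genotype. The counting intervals limit what this depth can show, with the widest intervals among the 51 genes for Psma8, Psme2b, Psmb11 and Psmg4.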

Other observations

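Of the 51 genes, 42 had a single transcript identifier in the files, and the listed length differed between the libraries for 8. For Psmg4 it was 549 bases in the knockout-labelled and 532 bases in the wild type library. In the RefSeq annotation 15 members overlapped another gene, and whether reads were counted by strand is not stated. Psmc3ip overlaps Mlx, which had 22.9 FPKM in the knockout-labelled and 18.8 FPKM in the wild type library. Psme4 overlaps Erlec1, which had 12.8 FPKM in the knockout-labelled and 14 FPKM in the wild type library, and Psmd10 overlaps Atg4a, which had 8 FPKM in the knockout-labelled and 6.64 FPKM in the wild type library. RefSeq names 6 pseudogenes after members, and 0 of them were listed in either library. Psmd10 is on the X chromosome, and its level was nearly equal in libraries that differed in Xist and Eif2s3y.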
